A study of Sisymbrium orientale with 12 samples.

Results

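The genes described here make flavonoids and anthocyanins in leaves of Sisymbrium orientale, a weed of the mustard family known as Indian hedge mustard. Members were all assembled transcripts, called contigs here, whose closest Arabidopsis locus was 1 of 10 listed synthesis genes; this rule uses the annotation and no expression value, though the list was drawn up with earlier results of these data known. Of the 10 genes, 9 had contigs with values, among 16386 loci in all, and these 9 held 17 of the 33277 contigs. No contig of UGT78D1 was analysed here. A gene is called below by the name of its Arabidopsis locus, and its level is the sum over its contigs. All 9 passed the filter on low values, which asked for at least 1 CPM (reads scaled to a common library size) in at least 5 libraries.

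Flavonoid synthesis starts from p-coumaroyl-CoA, which the phenylpropanoid pathway makes from phenylalanine. Chalcone synthase (CHS), chalcone isomerase (CHI) and its non-catalytic helper CHIL build the flavonoid skeleton, and flavanone 3-hydroxylase (F3H) and flavonoid 3'-hydroxylase (F3'H) hydroxylate it. At the dihydroflavonol the pathway forks: flavonol synthase (FLS1) leads to flavonols, and dihydroflavonol reductase (DFR) and leucoanthocyanidin dioxygenase (LDOX) lead to anthocyanidins. In Arabidopsis the glucosyltransferase UGT78D2 adds a sugar to both kinds of product. Flavonols absorb ultraviolet light in the leaf epidermis, anthocyanins are the red and purple pigments, and R2R3-MYB factors switch on the branches, with MYB11, MYB12 and MYB111 known for flavonol genes and PAP1 and PAP2 for anthocyanin genes in Arabidopsis.

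The 12 libraries came from lines that are resistant or susceptible to 2,4-D, a synthetic auxin used as a herbicide, and the series title attributes the resistance to a deletion in the degron of IAA2. In all 12 lines the youngest expanded leaf was taken from untreated plants at the four-leaf stage, so no leaf had met the herbicide. Cross A, at generation F4, gave the resistant lines R202, R206 and R221 and the susceptible lines S205, S207 and S242. Cross B, at generation F3, gave the resistant lines RP6 and RP8 and the susceptible lines SP3, SP7, SP9 and SRP1, so that 5 resistant and 7 susceptible lines could be compared and cross cannot be told apart from generation. How many plants were pooled for a line is not given in the labels, and each line gave a single library. The p-values therefore reflect only the spread among the libraries at hand. In that spread, differences between lines, between plants and of technical origin cannot be told apart. All values are from bulk leaf, where fewer cells of a type and less RNA per cell cannot be told apart.

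Libraries other than R206 held 128006528 to 145936928 recovered reads, and 3 reads were worth 0.0196 to 0.0259 CPM in them. R206 held 100976475 (3 reads, 0.0299 CPM), a less certain value because the step between its values lies close to a round decimal step. These worths are far below the level of every member. The summed contigs of IAA2, the gene of the title, averaged 13.6 ± 1.34 CPM over the 5 resistant lines and 24.35 ± 5.87 CPM over the 7 susceptible lines (SD). The susceptible line S242 had 13.84 CPM, within the 12.35 to 15.27 CPM of the resistant lines. All 4 leaf markers had values, with a summed level of 24510 to 31790 CPM in resistant and 26880 to 63840 CPM in susceptible lines. The 4 epidermis markers summed to 616 to 783 CPM in resistant and 348 to 877 CPM in susceptible lines. Of the seed markers 1 of 3 had values (1.32 to 2.81 against 1.25 to 2.80 CPM), of the senescence markers 1 of 2 (0.715 to 1.95 against 2.02 to 4.36 CPM), and none of the 2 root markers. The 2 trichome markers summed to 17.9 to 25.5 and 11.3 to 28.4 CPM. S205 and SP9 stood apart from the other libraries: the Rubisco small chain took 6.62% and 5.17% of their values, against 3.39% to 4.60% in the other 10. The trichome regulator GL1 was at 0 CPM in S205, which allows up to 0.0259 CPM (3 reads, counting error only). It was at 0.153 CPM in SP9. The epidermal gene PDF1 was lowest in the same libraries, at 63.5 and 89.2 CPM, against 167 to 517 CPM elsewhere. The other epidermis and trichome markers did not set both libraries apart. FDH was lowest in S205 (197.7 CPM), but SRP1 (223.7 CPM) lay below SP9. ATML1 was lowest in RP6 (34.75 CPM) and PDF2 in SP7 (39.05 CPM), with SP9 next at 35.33 and 41.51 CPM. S205 had 38.95 CPM of ATML1 and 47.4 CPM of PDF2. GL2 was lowest in SRP1 (9.552 CPM), below S205 (14.39 CPM) and SP9 (16.01 CPM).

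CHS (AT5G13930), the entry enzyme, was by far the most abundant member. Its single contig had 457, 405 and 339 CPM in the resistant lines of cross A (R202, R206, R221) and 966, 563 and 436 CPM in the susceptible ones (S205, S207, S242). In cross B it had 591 and 596 CPM in the resistant lines (RP6, RP8) and 550.2, 523, 595 and 499.8 CPM in the susceptible lines (SP3, SP7, SP9, SRP1). S205 stood far above every other line, the 3 resistant lines of cross A held the lowest, the second lowest and the fourth lowest values, and the 6 lines of cross B lay close together.

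CHIL (AT5G05270), which in Arabidopsis helps CHS without being an isomerase itself, had the same highest and lowest lines. Its 2 contigs summed to 87.2, 76.9 and 51.8 CPM in the resistant lines and 196.5, 110.5 and 83.6 CPM in the susceptible lines of cross A. In cross B the sums were 111.5 and 103.0 CPM in the resistant lines and 88.4, 88.8, 95.8 and 91.6 CPM in the susceptible lines. The longer contig carried nearly all of it, with a mean of 93.2 CPM against 5.67 CPM for the shorter one, and S205 was highest and R221 lowest in both.

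CHI (AT3G55120), which closes the flavonoid ring, was the steadiest member. Its contig had 84.4, 66.6 and 56.5 CPM in the resistant lines and 90.8, 74.4 and 74.4 CPM in the susceptible lines of cross A, and 72.6 and 69.8 CPM in the resistant lines and 57.0, 61.3, 54.8 and 53.5 CPM in the susceptible lines of cross B. The highest line had 1.70 times the level of the lowest, compared with 2.85 times for CHS and 3.80 times for CHIL. In cross B both resistant lines lay above all susceptible lines, and in cross A the groups overlapped.

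DFR (AT5G42800), which commits dihydroflavonols to anthocyanins, varied most from line to line. Its contig had 26.8, 16.6 and 5.58 CPM in the resistant lines and 6.39, 6.31 and 26.0 CPM in the susceptible lines of cross A. In cross B it had 8.35 and 12.1 CPM in the resistant lines and 6.68, 2.88, 12.7 and 2.60 CPM in the susceptible lines. R202 and S242, a resistant and a susceptible line of the same cross, were highest at nearly equal values, SRP1 and SP7 were lowest, and the phenotypes overlapped in both crosses. The highest line had 10.3 times the level of the lowest.

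LDOX (AT4G22880), the next enzyme on the anthocyanin branch, ordered the lines much as DFR did. It had 32.9, 18.3 and 6.45 CPM in the resistant lines and 11.3, 6.91 and 25.6 CPM in the susceptible lines of cross A, and 10.5 and 15.1 CPM in the resistant lines and 8.01, 5.95, 15.0 and 3.73 CPM in the susceptible lines of cross B. R202, S242 and R206 were again the 3 highest lines and SRP1 the lowest, an 8.82-fold range.

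**Figure D1:**
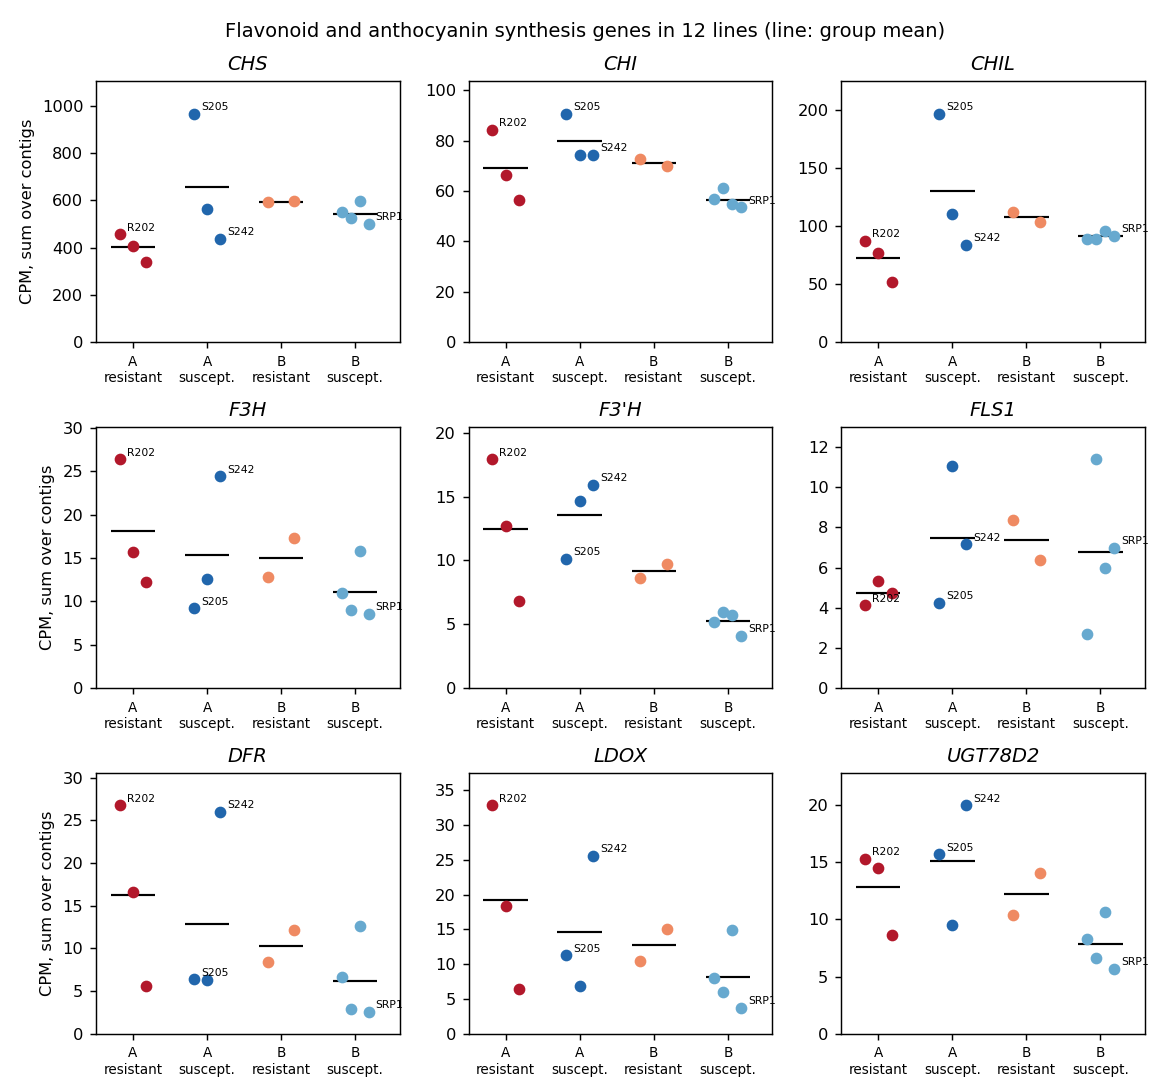
Level of each of the 9 measured genes in the 12 lines, 1 panel a gene, on an axis in CPM that starts at 0 (reads scaled to a common library size, summed over the contigs of a locus). Points are single lines grouped by cross and phenotype and black bars are group means; S205 is the highest point for CHS, CHIL and CHI, R202 for F3H, F3'H, DFR and LDOX, and S242 is highest for UGT78D2.

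UGT78D2 (AT5G17050) had 15.3, 14.5 and 8.62 CPM in the resistant lines and 15.7, 9.52 and 20.0 CPM in the susceptible lines of cross A, and 10.4 and 14.1 CPM in the resistant lines and 8.33, 6.59, 10.7 and 5.71 CPM in the susceptible lines of cross B. S242 was highest and SRP1 lowest, 3.50-fold apart. F3'H (AT5G07990), the cytochrome P450 that sets the hydroxyl pattern of the B ring, had 17.9, 12.7 and 6.81 CPM in the resistant lines and 10.1, 14.6 and 15.9 CPM in the susceptible lines of cross A. In cross B it had 8.61 and 9.69 CPM in the resistant lines and 5.18, 5.93, 5.71 and 4.10 CPM in the susceptible lines. Apart from R221, every line of cross A lay above every line of cross B.

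FLS1 (AT5G08640), the flavonol enzyme at the fork, had a line order of its own. Its 3 contigs summed to 4.12, 5.34 and 4.72 CPM in the resistant lines and 4.26, 11.1 and 7.15 CPM in the susceptible lines of cross A, and to 8.37 and 6.36 CPM in the resistant lines and 2.67, 11.4, 5.99 and 6.98 CPM in the susceptible lines of cross B. SP7 and S207 were highest and SP3 lowest, a 4.26-fold range with overlapping groups. The means of its single contigs were 1.78 CPM for the R-assembly contig and 1.73 and 3.02 CPM for the S-assembly contigs, R and S being the marks of the 2 assemblies in the contig names.

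F3H (AT3G51240) summed 6 contigs to 26.4, 15.7 and 12.2 CPM in the resistant lines and 9.18, 12.5 and 24.4 CPM in the susceptible lines of cross A. In cross B the sums were 12.8 and 17.3 CPM in the resistant lines and 10.9, 8.95, 15.8 and 8.59 CPM in the susceptible lines. R202 and S242 were the highest lines, as for DFR, over a range of 3.07-fold. The 6 contigs fell into sets by the Arabidopsis transcript they matched, and these sets behaved differently. The 2 contigs that matched the first transcript model (1 of each assembly, with means of 6.04 and 4.64 CPM) summed to 21.9 CPM in R202, 20.2 CPM in S242 and 4.73 CPM in SRP1, a 4.63-fold range around a mean of 10.7 ± 5.60 CPM (SD, n = 12). The 4 contigs that matched the second model summed to 3.13 to 5.19 CPM, a 1.66-fold range around 3.87 ± 0.601 CPM (SD, n = 12), with R221 highest. Only 1 of those 4 had a mean above 1 CPM (1.15 CPM), and the other 3 had means of 0.845, 0.914 and 0.964 CPM. Whether the sets are separate gene copies or parts of the same transcripts was not tested, and contigs of a locus can share reads, so single contig levels are uncertain.

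**Figure D2:**
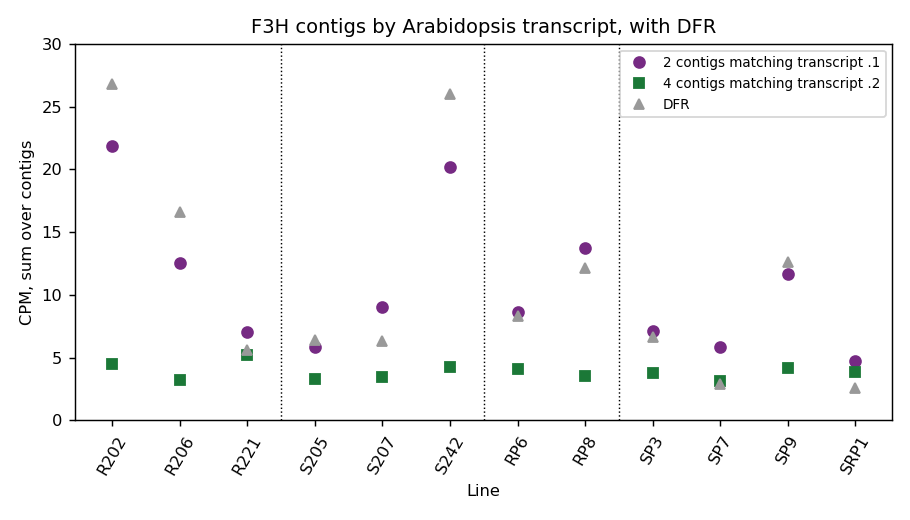
Level of F3H in the 12 lines in CPM, with the contigs summed separately by the Arabidopsis transcript model they matched and DFR shown for comparison. The set of the first model runs from 4.73 CPM in SRP1 to 21.9 CPM in R202, whereas the set of the second model stays between 3.13 and 5.19 CPM.

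Per kilobase of contig, CHS stood at 319 ± 91.8 CPM per kb (SD, n = 12), CHIL at 96.95 ± 33.8 CPM per kb and CHI at 55.2 ± 9.75 CPM per kb. F3H (11.1 ± 4.36 CPM per kb), LDOX (10.05 ± 6.59 CPM per kb) and DFR (7.44 ± 5.53 CPM per kb) followed. UGT78D2 (6.997 ± 2.58 CPM per kb), FLS1 (5.46 ± 2.23 CPM per kb) and F3'H (5.09 ± 2.39 CPM per kb) came last. CHS lay above CHIL, and CHI above F3H, by more than the SDs of both genes together. CHIL and CHI, and each neighbouring pair among the 6 lower members, did not. These SDs are spreads over the same 12 lines, and the genes were not compared line by line. A gap within the SDs therefore does not mean that levels were equal. The log2 range over the 12 lines was 3.14 for DFR and 2.98 for LDOX, against a median of 0.78 over all 16051 loci tested, and 2.01% and 2.36% of those loci had a larger range. It was 2.00 for F3'H, 1.91 for CHIL, 1.91 for FLS1, 1.72 for UGT78D2, 1.56 for F3H and 1.51 for CHS. CHI, at 0.76, was close to the median locus, with 51.8% of loci above it.

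Resistant lines were compared with susceptible lines over both crosses, with the cross as a covariate, on log2(CPM + 0.5) of the summed contigs. No member passed the test (limma, Benjamini-Hochberg adjustment over all 16051 loci, threshold 0.05), and 0% of all loci did. None of the 9 members had an unadjusted p under 0.05, which 8.22% of all loci had, and edgeR and DESeq2 on the recovered reads called 0 of the 9 as well. DFR averaged 13.9 ± 8.31 CPM over the resistant lines (SD, n = 5) and 9.08 ± 8.18 CPM over the susceptible lines (SD, n = 7), differing by 0.64 log2 units (SE 0.505, limma adjusted p = 0.649). LDOX stood at 16.7 ± 10.1 and 10.9 ± 7.44 CPM, differing by 0.52 log2 units (SE 0.447, limma adjusted p = 0.670). CHS stood at 477 ± 114 and 590.4 ± 173 CPM, differing by -0.28 log2 units (SE 0.203, limma adjusted p = 0.633), and without S205 the difference was -0.08. The differences of all 9 ran from -0.31 (CHIL) to 0.64 (DFR), with 6 positive and 3 negative and a median of 0.19, beside a median of -0.006 over all loci. With 1 library left out, CHI ran from -0.038 to 0.13 and FLS1 from -0.33 to 0.033, so their signs were not stable, LDOX ran from 0.30 to 0.84, DFR from 0.44 to 0.98, and CHIL was -0.09 without S205. No member separated the phenotypes without overlap, as 0.53% of all loci did. At the level of single contigs, 16 of the 17 passed the filter and limma called 0 of them in any of the 5 comparisons made, with a smallest adjusted p of 0.0948. Of all 31337 contigs tested, 0% were called by phenotype over both crosses, 0.00319% within cross A, 0.0606% within cross B, 0% for the difference between crosses and 2.18% between crosses.

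Within cross A, the members at the start of the pathway were nearest to a difference. CHS averaged 400.2 ± 58.7 CPM in the resistant lines and 655 ± 277 CPM in the susceptible lines (SD, n = 3 each), differing by -0.64 log2 units (SE 0.244, limma unadjusted p = 0.0246, adjusted p = 0.686). CHIL stood at 72.0 ± 18.2 and 130.2 ± 59.0 CPM, differing by -0.79 log2 units (SE 0.273, limma unadjusted p = 0.0151, adjusted p = 0.686). S205 held the highest value of both genes, and without it the differences were -0.32 and -0.45. These 2 of 9 members with an unadjusted p under 0.05 compare with 5.16% of all loci, and 0 members were called, as were 0% of loci. CHS and CHIL had r = 0.987 over the lines of cross A, so they are not 2 separate observations. DFR and LDOX had log2 differences of 0.40 and 0.31 in cross A, which became -0.08 and -0.20 when R202 was left out. The groups of cross A overlapped for all 9 members, where 7.58% of all loci did not overlap.

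Within cross B, all 9 log2 differences were positive, from 0.13 (CHS) to 0.91 (DFR), with a median of 0.45, and 0 of 9 passed the test beside 0.0249% of all loci. FLS1 turned to -0.093 without SP3, so the count of 9 depends on that line. F3'H averaged 9.15 ± 0.758 CPM over the resistant pair (SD, n = 2) and 5.23 ± 0.814 CPM over the susceptible lines (SD, n = 4), differing by 0.76 log2 units (SE 0.314, limma unadjusted p = 0.0345, adjusted p = 0.9997). It was the 1 member with an unadjusted p under 0.05, as 4.4% of all loci were. CHI stood at 71.2 ± 1.96 and 56.6 ± 3.42 CPM, differing by 0.33 log2 units (SE 0.149, limma adjusted p = 0.9997). CHI, CHIL and F3'H had both resistant lines above all 4 susceptible lines, and 21.9% of all loci had groups that did not overlap. The members share lines and vary together, so 9 positive signs are not 9 separate observations.

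The difference between the crosses in the effect of phenotype was positive for all 9 members, from 0.18 (F3H) to 1.02 (CHIL) on the log2 scale, with a median of 0.77. Of these signs, 3 turned when a single line was left out, and for each gene more than 1 line did so. F3H turned to -0.21 without S242, -0.063 without R221 and -0.035 without RP8. DFR turned to -0.13 without S242 and -0.093 without R221, and LDOX to -0.17 without R221 and -0.046 without S242. No member passed the test on this difference, and neither did any of the 16051 loci (0%). For CHIL it was 1.02 (SE 0.398, limma unadjusted p = 0.0267, adjusted p = 0.999) and for CHI 0.55 (SE 0.205, limma unadjusted p = 0.0224, adjusted p = 0.999). These 2 of 9 compare with 3.1% of all loci at an unadjusted p under 0.05. CHIL and CHI had r = 0.860 in cross A and 0.799 in cross B, so they are not 2 separate observations.

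**Figure D3:**
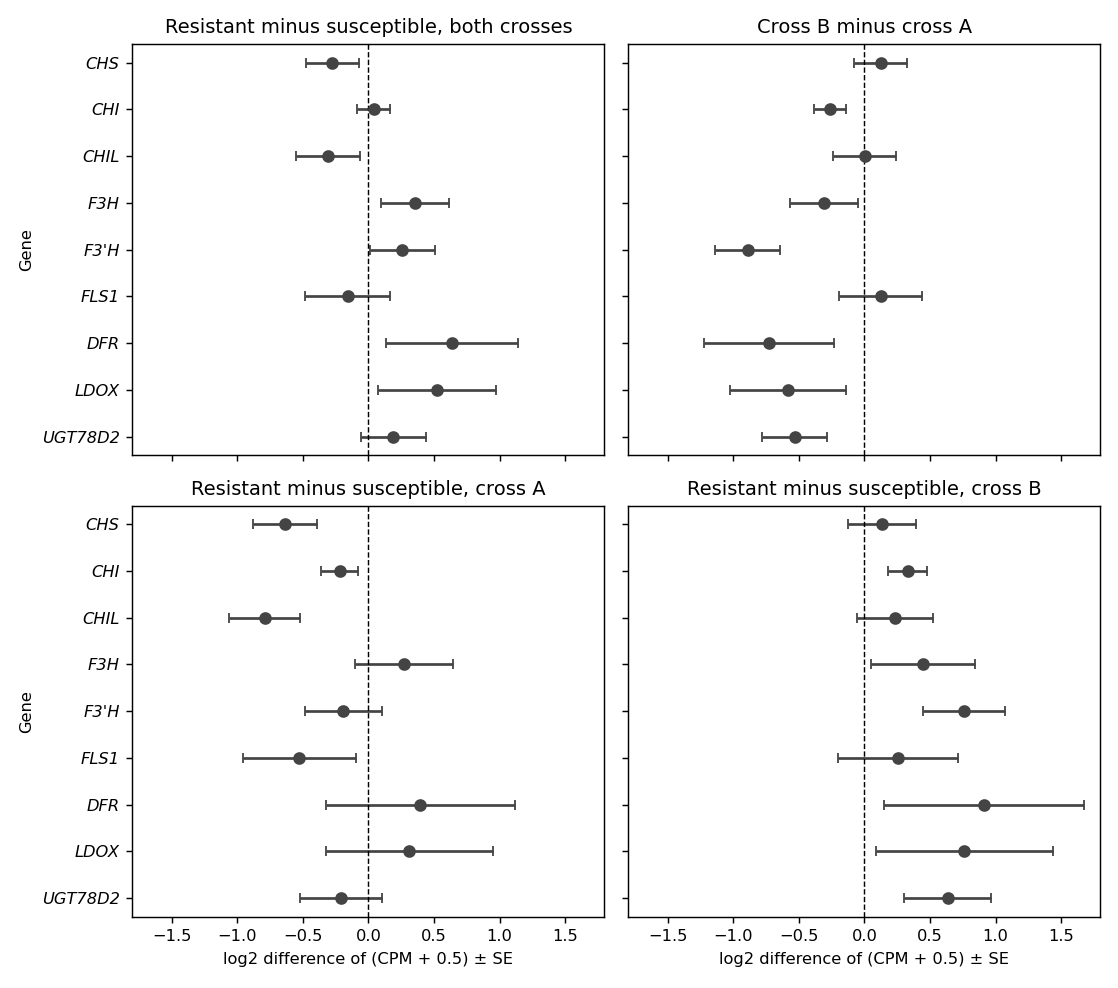
Log2 difference of each member between resistant and susceptible lines, over both crosses and within cross A and cross B, and between cross B and cross A, with bars of 1 standard error from limma. Within cross B all 9 points are above 0, within cross A 6 are below 0, and no point passed the adjusted threshold.

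Between the crosses, with the phenotype as a covariate, F3'H had the largest difference. It stood at 13.0 ± 4.05 CPM in cross A and 6.53 ± 2.15 CPM in cross B (SD, n = 6 each), differing by -0.89 log2 units (SE 0.245, limma unadjusted p = 0.00368, adjusted p = 0.121). It was the 1 member with an unadjusted p under 0.05, where 13.6% of all loci were, and 0 of 9 members passed the adjusted threshold beside 1.25% of all loci. The call of F3'H depended on the test: DESeq2 on the recovered reads gave -1.0 (adjusted p = 0.00496) and edgeR -1.0 (adjusted p = 0.0903). It also passed in limma when R221, the low line of cross A, was left out (-1.07, adjusted p = 0.0204), and over the other settings and left-out libraries the limma adjusted p was 0.0864 to 0.274. UGT78D2 stood at 13.9 ± 4.24 and 9.30 ± 3.06 CPM, differing by -0.53 log2 units (SE 0.246, limma adjusted p = 0.375). DFR had -0.73 (SE 0.498, limma adjusted p = 0.575) and LDOX -0.58 (SE 0.441, limma adjusted p = 0.610), and without S242 they were -0.35 and -0.29. CHS had 0.12, FLS1 0.13 and CHIL 0.002. In all, 3 members were positive and 6 negative, with a median of -0.31 beside 0.009 over all loci, and no member separated the crosses without overlap, as 2.06% of loci did.

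F3H and FLS1 were the members with contigs of both assemblies, which allowed the R-assembly sum to be divided by the S-assembly sum within each line (0.5 CPM added to both). This ratio ran from 0.681 to 1.06 over the 12 lines for F3H and from 0.274 to 0.630 for FLS1. Its log2 difference by phenotype was 0.17 for F3H (SE 0.128, limma adjusted p = 0.798) and -0.03 for FLS1 (SE 0.231, limma adjusted p = 0.988), where 0.0467% of 4286 loci were called. By cross it was -0.004 for F3H (SE 0.126, limma adjusted p = 0.992) and 0.12 for FLS1 (SE 0.228, limma adjusted p = 0.866), where 2.29% of loci were called. The authors' deposited table of resistant against susceptible lines lists 277 contigs, beside 33277 contigs with values, and 0 of them belong to the 10 genes. The listed contigs have p-values of the authors' comparison up to 0.0498 and absolute log2 fold changes from 1.002. The members held only 17 contigs, so an absence from so short a list is no result about them.

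Some members varied together over the lines and others did not. Pearson and Spearman correlations of log2 levels over the 12 lines were computed for the 36 member pairs and, for each member, with the anthocyanin regulator PAP2 and the Rubisco small chain share, 54 relations in all. They were chosen after values had been seen, with 100000 permutations each, a smallest possible p of 1e-05 and Benjamini-Hochberg adjustment over the 54. Of the 36 member pairs, 13 had an adjusted permutation p under 0.05 for r. The share over all pairs of loci was not computed, so this count does not set the members apart. The permutations also mixed lines freely over crosses and phenotypes. DFR and LDOX had r = 0.970 and rho = 0.972 (permutation p = 1e-05 for both, the smallest possible, adjusted p = 1.3e-04 and 3.6e-04). Without the 2 lines farthest from the median of DFR, R202 and S242, r was 0.945, and within cross A and cross B it was 0.963 and 0.969. DFR and F3H had r = 0.947 and rho = 0.916 (adjusted permutation p = 1.3e-04 and 9.7e-04), with 0.899 without R202 and S242, 0.932 in cross A and 0.968 in cross B. Over the 10 pairs among F3H, F3'H, DFR, LDOX and UGT78D2, a grouping made after the values were seen and so given without a test, r ran from 0.716 to 0.970. Without the 2 farthest lines of each pair it ran from 0.448 to 0.945, within cross A from 0.523 to 0.963 and within cross B from 0.641 to 0.970.

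R202 and S242 were among the 3 highest lines for each of these 5 genes, and SRP1 was among the 3 lowest for each. R206 was among the 3 highest for 2 of the 5, SP7 among the 3 lowest for 4, and R221 and SP3 among the 3 lowest for 2. The line order therefore crossed the phenotypes, with 1 resistant and 1 susceptible line at the top.

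CHS and CHIL formed a second pattern, with r = 0.961 and rho = 0.916 (permutation p = 2.0e-05 and 9.0e-05, adjusted p = 2.2e-04 and 9.7e-04). Without S205 and R221, the lines farthest from the median of CHS, r was 0.842, and it was 0.987 in cross A and 0.707 in cross B. CHS and DFR showed no such relation over all lines, with r = -0.20 and rho = -0.0769 (permutation p = 0.546 and 0.814, adjusted p = 0.756 and 0.897), and -0.41 without S205 and R221. Their r was -0.33 in cross A and 0.965 in cross B, 6 lines each, and the difference between the crosses was not tested. CHI was nearest to F3'H, with r = 0.811 and rho = 0.846 (permutation p = 0.00212 and 0.00104, adjusted p = 0.0102 and 0.00624), 0.896 without S205 and SRP1, 0.562 in cross A and 0.934 in cross B. FLS1 had r between -0.28 and 0.0744 with the other 8 members, with a lowest adjusted permutation p of 0.637 for r.

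**Figure D4:**
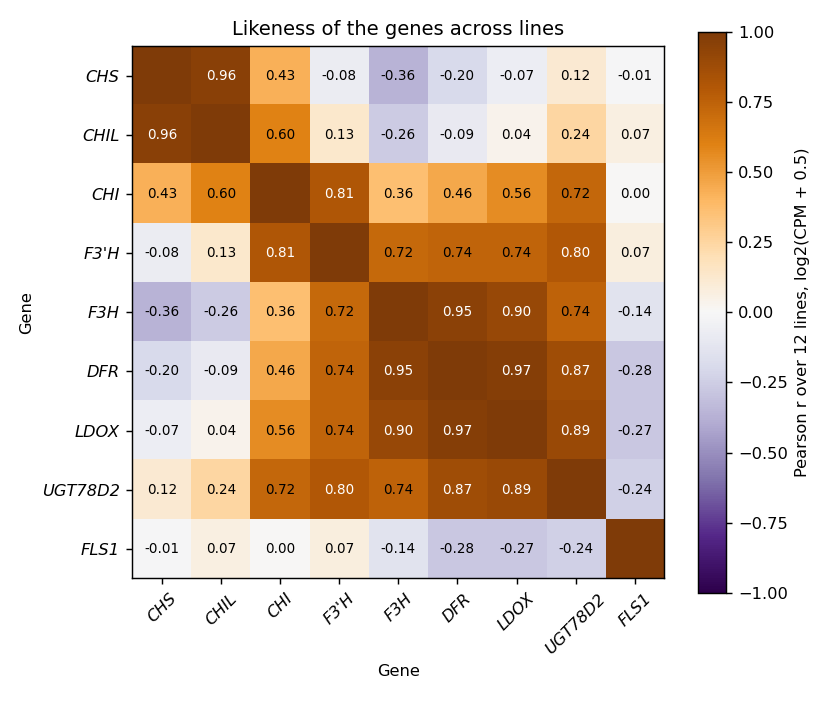
Pearson correlation of log2(CPM + 0.5) over the 12 lines between the 9 members, with 1 cell a pair and color from -1 to 1. CHS and CHIL pair at 0.961, DFR and LDOX at 0.970, and the FLS1 cells lie between -0.28 and 0.0744.

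S205 was highest for CHS, CHIL and the share of values taken by the Rubisco small chain. Because this was seen before they were set side by side, their correlations are given without a test. CHS had r = 0.798 and rho = 0.476 with that share over the 12 lines, r = 0.507 without S205, 0.485 without S205 and R221, 0.943 in cross A and -0.25 in cross B. CHIL had r = 0.730 and rho = 0.503, r = 0.313 without S205, 0.209 without S205 and R221, 0.883 in cross A and -0.55 in cross B. What part the low PDF1 and GL1 levels and the high Rubisco share of S205 have in its CHS and CHIL levels was not tested.

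At the fork, the ratio of DFR to FLS1 compares the levels of these genes within a line, in CPM not divided by contig length. The ratio takes a single gene for each branch, so it is no measure of the branches as a whole. It was 6.498, 3.11 and 1.18 in R202, R206 and R221 and 1.501, 0.570 and 3.64 in S205, S207 and S242. In cross B it was 0.997 and 1.90 in RP6 and RP8 and 2.503, 0.253, 2.11 and 0.373 in SP3, SP7, SP9 and SRP1. The 5 resistant lines ran from 0.997 to 6.498 and the 7 susceptible lines from 0.253 to 3.64, so the phenotypes overlapped, with S207, SP7 and SRP1 below every resistant line. The log2 ratio was 0.80 higher in resistant than in susceptible lines within crosses (two-sided exact permutation p = 0.307 over 300 arrangements, smallest possible 0.00333). It was -0.85 for cross B minus cross A within phenotypes (two-sided exact permutation p = 0.263 over 350 arrangements, smallest possible 0.00286). This ratio was chosen after values had been seen.

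Genes that act before and after the members were described from lists of the pathway. Of 9 phenylpropanoid entry genes, 8 were tested and 0 were called by phenotype or by cross, with median log2 differences of -0.08 and -0.07. PAL1, the phenylalanine ammonia-lyase that opens the phenylpropanoid pathway, had 187, 152 and 141.5 CPM in the resistant lines and 349, 216 and 158 CPM in the susceptible lines of cross A. In cross B it had 235 and 236 CPM in the resistant lines and 220.1, 187, 224 and 186 CPM in the susceptible lines. S205 was highest and R221 lowest, as for CHS. Among the other tested entry genes, S205 was highest for PAL2, C4H, 4CL2, 4CL3 and 4CL5, whereas PAL4 and 4CL1 were highest in SP9. PAL4 had 22.1 CPM in S205, in a range of 19.6 to 40.7 CPM. The Pearson r of these other entry genes with CHS ran from 0.179 for PAL4 and 0.284 for 4CL5 to 0.775 for PAL2. Of all 16050 other loci tested, PAL1 was the most like CHS over the 12 lines (Pearson r = 0.98), and CHIL came next. The other 7 of the 8 most alike loci outside the members had r of 0.93 to 0.94. They were AT4G12970, annotated as stomagen, AT1G04380, a 2-oxoglutarate dependent oxygenase, AT5G48880, a peroxisomal thiolase, AT1G01630, a Sec14p-like protein, AT2G21620, an adenine nucleotide hydrolase-like protein, AT4G21192, a Cmc1-like protein, and AT5G17680, annotated as a TIR-NBS-LRR disease resistance protein.

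Of the 9 genes on the list of anthocyanin decoration and transport, 8 had values and were tested, and 0 were called by phenotype (7 positive, median log2 difference 0.57) or by cross (7 negative, median -0.64). UGT75C1, the anthocyanin 5-O-glucosyltransferase of Arabidopsis, had 38.3, 17.9 and 7.18 CPM in the resistant lines and 8.55, 6.93 and 27.3 CPM in the susceptible lines of cross A. In cross B it had 10.2 and 12.3 CPM in the resistant lines and 5.45, 4.01, 11.6 and 2.29 CPM in the susceptible lines. R202 and S242 were highest and SRP1 lowest, as for DFR and LDOX. TT19, the glutathione S-transferase that carries anthocyanins towards the vacuole, ran from 4.26 CPM in SRP1 to 33.4 CPM in R202, with 28.2 CPM in S242. The smallest adjusted p of the list was that of the malonyltransferase 5MAT by cross, with differing by -0.98 log2 units (SE 0.440, limma adjusted p = 0.358). Of the 8, 3 did not have R202 and S242 as their highest lines. BGLU10, an anthocyanin glucosyltransferase of Arabidopsis, was highest in S205 (70.7 CPM) and lowest in R206 (36.4 CPM). ABCC2, a vacuolar transporter, ran from 79.8 CPM in SP7 to 190.5 CPM in R202 with RP8 (151 CPM) above S242 (134.5 CPM). SCPL10, the sinapoyltransferase, ran from 108 CPM in R221 to 165 CPM in R202 with SP9 (151 CPM) above S242 (137 CPM). The r with DFR was 0.0987 for BGLU10, 0.632 for ABCC2 and 0.718 for SCPL10. UGT79B1, an anthocyanin xylosyltransferase, had 0.62 by phenotype (SE 0.292, limma adjusted p = 0.587).

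Other genes of the list led the likeness to DFR. Among 16050 loci the nearest were 5MAT, UGT75C1 and the acyltransferase At3AT1 (Pearson r = 0.97 each), followed by LDOX, the glutathione S-transferase AT1G02920, PAP2 and F3H. AT3G21950, a methyltransferase, AT5G41070, a double-stranded RNA binding protein, and AT3G57020, a phosphotriesterase, completed the 8 named outside the members, at r = 0.93 each. The loci were ranked on these 12 lines alone.

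PAP2 (AT1G66390, MYB90), an activator of the anthocyanin branch in Arabidopsis, had 9.85, 6.80 and 3.22 CPM in the resistant lines and 3.04, 3.53 and 8.47 CPM in the susceptible lines of cross A. In cross B it had 4.58 and 6.61 CPM in the resistant lines and 3.304, 1.69, 3.87 and 1.40 CPM in the susceptible lines. R202 and S242 were highest and SRP1 and SP7 lowest, the same lines as for DFR. DFR and PAP2 had r = 0.967 and rho = 0.944 (permutation p = 1e-05 and 2.0e-05, adjusted p = 1.3e-04 and 3.6e-04). Without R202 and S242 r was 0.944, and it was 0.991 in cross A and 0.934 in cross B. By phenotype PAP2 had differing by 0.70 log2 units (SE 0.341, limma unadjusted p = 0.0638, adjusted p = 0.587). TT8, the bHLH partner of such MYB factors, was below the filter at 0.140 to 1.52 CPM, with its highest values in R202 (1.52 CPM) and S242 (1.39 CPM).

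**Figure D5:**
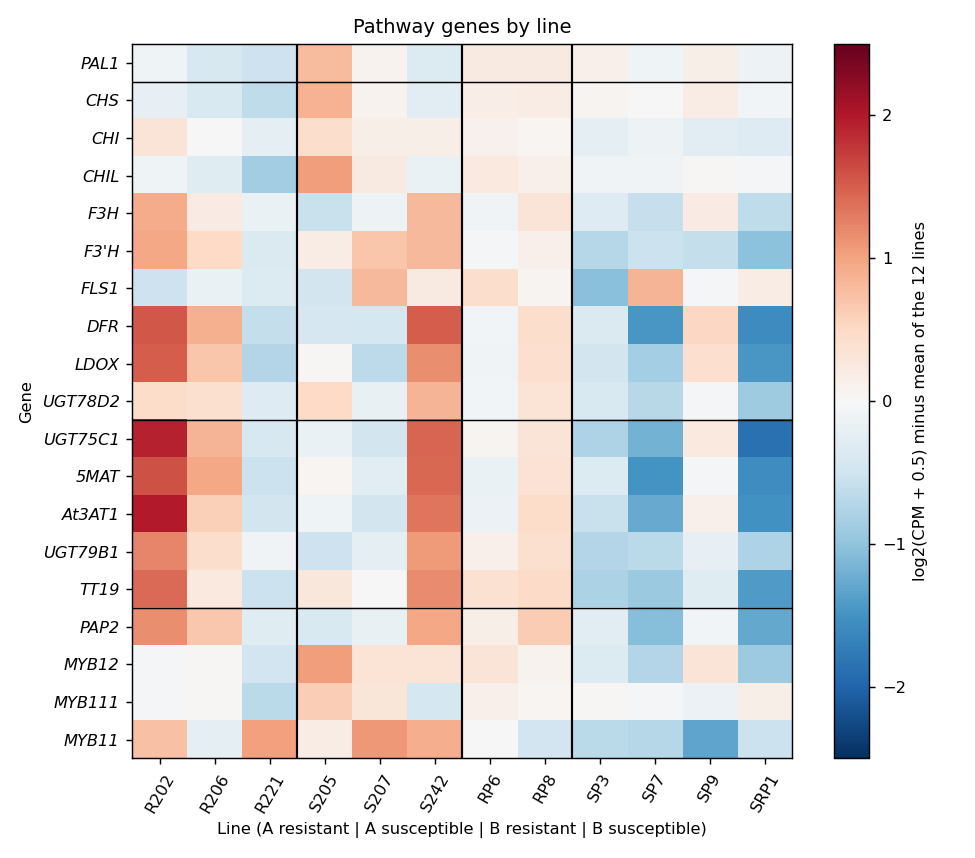
Levels of pathway genes in the 12 lines as log2(CPM + 0.5) minus the mean of each gene over the lines, with genes as rows (PAL1, the 9 members, then decoration, transport and regulator genes) and lines as columns. R202 and S242 are high and SRP1 low for F3H, F3'H, DFR, LDOX, UGT78D2, UGT75C1, 5MAT, At3AT1, UGT79B1, TT19 and PAP2. S205 is the highest line for PAL1, CHS, CHIL, CHI, MYB12 and MYB111.

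Of 13 listed activators 10 had values and 9 were tested, and 0 were called by phenotype or by cross. MYB11, a regulator of flavonol genes, stood nearest the threshold by cross, at 11.2 ± 3.73 CPM in cross A and 4.40 ± 1.41 CPM in cross B (SD, n = 6 each), with differing by -1.21 log2 units (SE 0.264, limma adjusted p = 0.0523). The difference was carried by 1 of its 4 contigs (-3.20), while the other 3 had -0.05 to -0.39. Its call depended on the setting, with an adjusted p of 0.0476 in edgeR and 1.98e-04 in DESeq2, and a range of 0.00793 to 0.527 over the limma alternatives. Its relatives MYB12 and MYB111 had log2 differences by cross of -0.43 (limma adjusted p = 0.563) and 0.03 (limma adjusted p = 0.961). Both were highest in S205, as CHS was, at 21.7 and 20.0 CPM. Over the 12 lines the Pearson r with CHS was 0.595 for MYB12, 0.822 for MYB111 and -0.305 for MYB11, given without a test. HY5, a light-signalling activator of CHS, and TTG1, the WD40 partner of the anthocyanin MYB factors, had -0.35 and -0.21 (limma adjusted p = 0.308 and 0.343). Of 14 repressors 13 were tested and 0 were called. KFB-CHS, the F-box protein that marks CHS for degradation, had a log2 difference of -0.80 by cross (SE 0.279, limma adjusted p = 0.234), and LBD39, a nitrogen-responsive repressor of anthocyanin genes, had 0.81 (SE 0.290, limma adjusted p = 0.241). Of 10 other flavonol enzymes 2 had values and 0 were called, with OMT1 at 0.21 by cross (limma adjusted p = 0.597). No gene of the 7 on the proanthocyanidin list, a branch known from the Arabidopsis seed coat, was analysed here.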

How the data were processed

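Leaf poly(A) RNA of 12 lines was sequenced as stranded TruSeq libraries, per the labels' protocols. The deposited table holds a normalized signal per contig (CPM on a scaled library size, made by the authors). Every value (100%) was a whole multiple, within 0.1, of the smallest step of its column, so whole reads could be recovered, and columns sum to 915639 to 1180044. A deposited table of the authors' own comparison gives p-values and log2 fold changes. The submitters' processing notes name edgeR, R 3.3, SAMtools 1.3.1, Bowtie2 and TAIR10; not given in the sources used here: their roles and the counting of reads that match several contigs. Annotation covers 40987 contigs, 21 of the members, of which 4 had no values.

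Contigs were summed per Arabidopsis locus, and log2(CPM + 0.5) was fitted over all 12 libraries with limma 3.58.1 (R 4.3.3, mean-variance trend, Benjamini-Hochberg adjustment), for 16051 of 16386 loci. Fold changes on this scale understate those of low genes. The members and gene lists were chosen with earlier results of these data known. Named were all members, their contigs with a mean of at least 1 CPM, and up to 4 loci a list by smallest unadjusted p. The 8 non-member loci most like CHS and the 8 most like DFR were named as well. PAL2, C4H, 4CL2, MYB12, MYB111, TT8, BGLU10, ABCC2 and SCPL10 were named after their values were seen. On the recovered reads, edgeR 4.0.16 and DESeq2 1.42.0 were alternatives. Other alternatives were pseudocounts of 0.1 and 2, other filters, median-ratio scaling, robust limma, no covariate, contigs of 1 assembly, each library left out, and S205 and SP9 left out together. Tested on simulated data, limma recovered 77% of 2-fold and 96% of 4-fold changes over both crosses (15977 loci, 8 false calls) and 78% and 95% between crosses (15964 loci, 10 false calls). The shares were 48% and 92% within cross A (15971 loci), 45% and 91% within cross B (15978 loci), and 14% and 64% for the difference between crosses (15981 loci). The changed loci were picked at random from all loci, and lines were simulated independently of each other. These shares may not hold for variable members such as DFR and LDOX, whose SEs by phenotype were 0.505 and 0.447 log2 units. No contig sequences or genome were used here.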

Additional observations from a re-analysis of the deposited data

Results flagged for a closer look

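In 45 sets of 4 to 7 lines (each member within a phenotype, within a cross and in the susceptible lines of cross B), the gap between an extreme line and its neighbor was compared with the range of the set, and 4 extremes lay beyond Dixon's 95% limit. Chance gives about 1 in 20 sets, and the sets share lines. CHS stood at 966 CPM in S205, far above the other susceptible lines and, as a separate set, far above the other lines of cross A. CHIL stood at 196.5 CPM in S205, far above the other susceptible lines. DFR stood at 26.0 CPM in S242, far above the other susceptible lines.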

How the results depend on the processing

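Over both crosses, within each cross and for the difference between crosses, no setting called a member; between crosses DESeq2 called 1, F3'H (-1.0, adjusted p = 0.00496), as did limma without R221. Leaving out 1 library gave 540 differences, of which 512 kept direction and side of the threshold, 27 reversed and 1 newly passed. A difference within 1 cross cannot move when a line of the other cross is left out. Part of the 540 directions was therefore fixed in advance. The other settings gave 478, of which 473, 4 and 1 did so, and other filters and robust limma cannot move a difference either. What caused the reversals and new calls was not tested. Reversed were F3H within cross A without S205 and SP9 (-0.026) and CHIL between crosses under median-ratio scaling (-0.0081), edgeR (-0.073) and DESeq2 (-0.071), from 0.002. With 1 library left out, the differences that changed sign ran as follows: by phenotype CHI from -0.038 to 0.13 and FLS1 from -0.33 to 0.033; within cross A F3H from -0.029 to 0.66, F3'H from -0.49 to 0.18, DFR from -0.077 to 1.05, LDOX from -0.20 to 0.93 and UGT78D2 from -0.49 to 0.046; within cross B FLS1 from -0.093 to 0.54. For the difference between crosses F3H ran from -0.21 to 0.48, DFR from -0.13 to 0.99 and LDOX from -0.17 to 0.96, and between crosses CHIL ran from -0.125 to 0.25 and FLS1 from -0.015 to 0.34. Counts over all loci moved as well. By phenotype 0 became 20 in DESeq2 and 2 with S-assembly contigs. Within cross A 0 became 1 with pseudocount 2, 9 in DESeq2, 1 with S-assembly contigs and 1 without S205 and SP9; within cross B 4 became 2 with pseudocount 2, 66 in DESeq2 and 23 without S205 and SP9. For the difference 0 became 16 in DESeq2, 1 with R-assembly contigs and 5 without S205 and SP9, and between crosses 200 became 772 in DESeq2. With 1 library left out these counts ran from 0 to 0 by phenotype, 0 to 6 (6 without R221) within cross A, 0 to 17 (17 without SP9) within cross B, 0 to 7 (7 without R221) for the difference and 54 (without SP3) to 272 between crosses, with 0 to 1 members called there; between crosses it was 109 or lower without each of R202, R221, RP8, S207, S242, SP3, SP7, SP9 and SRP1. No paired analysis was possible because the replicate numbers only follow the order of deposition and pair no lines. The within-cross groups of 2 to 4 lines limit what small differences can be detected, while 3 reads were worth at most 0.0299 CPM.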

Other observations

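Among the 4 contigs of MYB11, 1 S-assembly contig had a log2 difference of -3.20 between the crosses (SE 0.617). No p-value is given for it, because it passed the filter only through the 5 lines of cross A where it was high. It had 5.83 CPM in R202, 9.75 CPM in R221, 3.46 CPM in S205, 8.85 CPM in S207 and 5.25 CPM in S242. It was at 0 in R206, RP6, RP8, SP3, SP9 and SRP1, and at 0.0147 CPM in SP7. The contig was thus read in 5 of 6 lines of cross A and at or near 0 in all 6 of cross B, and it was named after its values were seen. The other 3 contigs had limma adjusted p of 0.526 to 0.905 over 31337 contigs, of which 2.18% were called.

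On the lignin and sinapate branch, which draws on the same p-coumaroyl-CoA, 9 of 10 listed genes were tested and 0 were called by phenotype or by cross. CAD4, a cinnamyl alcohol dehydrogenase of lignin synthesis, stood at 13.5 ± 3.00 CPM in cross A and 19.9 ± 2.58 CPM in cross B (SD, n = 6 each), differing by 0.52 log2 units (SE 0.112, limma adjusted p = 0.0523). Without S205, whose 19.3 CPM was the highest of cross A, the difference was 0.62 (limma adjusted p = 0.00937), and DESeq2 gave 0.50 (adjusted p = 0.00375). Over the limma alternatives the adjusted p ran from 0.00726 to 0.147. SCPL10, a sinapoyltransferase on the anthocyanin decoration list, was the 1 pathway gene with a contig in the authors' deposited table, where its log2 fold change is 1.97 with a p-value of 0.0498 and an FDR of 1; its locus sum had a log2 difference of 0.02 (limma adjusted p = 0.956).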
